A study of Mus musculus with 6 samples.

Results

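The 7 genes described here move iodide and the potassium that accompanies its uptake through the thyroid follicular cell, or recover iodide from unused hormone precursors. They are Slc5a5, Iyd, Slc26a7, Slc26a4, Ano1, Kcnq1 and Kcne2. They were chosen by function, and each was read from its brightest probe set. All 7 have 1 probe set each, among 19505 genes with a symbol on the array. Thyroid RNA was compared between 3 Foxe1flox/flox/Cre mice, called knockouts here, and 3 Cre control mice. Animals of both groups were of a C57BL/6J background, received tamoxifen at 0.05 g/kg daily for 5 days at the age of 6 to 8 weeks, and gave 1 thyroid lobe each, 2 weeks after treatment. Foxe1 encodes a forkhead transcription factor of the follicular cell. The sources used here give neither the promoter that drives Cre nor the sex of the animals.

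Iodide enters the follicular cell from the blood through the sodium iodide symporter, which uses the sodium gradient that the sodium pump maintains. It leaves across the apical membrane into the follicle lumen, where it is bound to thyroglobulin. Potassium channels at the basolateral membrane support uptake, and a deiodinase returns iodide from iodotyrosines that were not made into hormone.

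Values are log2 intensities per probe set, so a step of 1 is a doubling of signal. Precision is limited by having 3 arrays in each group. Foxe1 read 7.04 to 7.60 in the controls and 2.88 to 3.33 in the knockouts, and it fell by 4.19 (SE 0.22, limma adjusted p = 0.000442). Array medians lay between 5.62 and 5.69 and lower quartiles between 3.49 and 3.60. The mean of 3 Y-linked genes was 3.04 in control 1 and 2.65 in knockout 3, against 8.03 to 8.30 on the other 4 arrays, so 1 array of each group stood apart in this respect. Lobes of both groups held transcripts of neighbouring tissue, given with the marker lists below. In such whole-lobe RNA, fewer follicular cells and less transcript per cell cannot be told apart.

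Of the 7 genes, Slc5a5 and Iyd had far higher values in the knockouts than in the controls, while the other 5 differed by 0.41 or less. All 7 differences were positive, as were 46.8% of all 22206 probe sets. None of the 7 passed the adjusted threshold of 0.05 in limma, which 0.338% of all probe sets passed (0.252% higher and 0.0856% lower in the knockouts). An unadjusted p under 0.05 was reached by 2 of the 7, Slc5a5 and Iyd, and by 12.7% of all probe sets, 6.61% with higher knockouts. All knockouts lay above all controls for 3 of the 7, Slc5a5, Iyd and Slc26a4, and for 9.28% of all probe sets. None of the 7 had all knockouts below all controls, as 8.78% of all probe sets did, so that 3 of 7 had groups apart where 18.1% of all did. The median difference was 0.35 over the 7 genes and -0.02 over all probe sets.

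**Figure D1:**
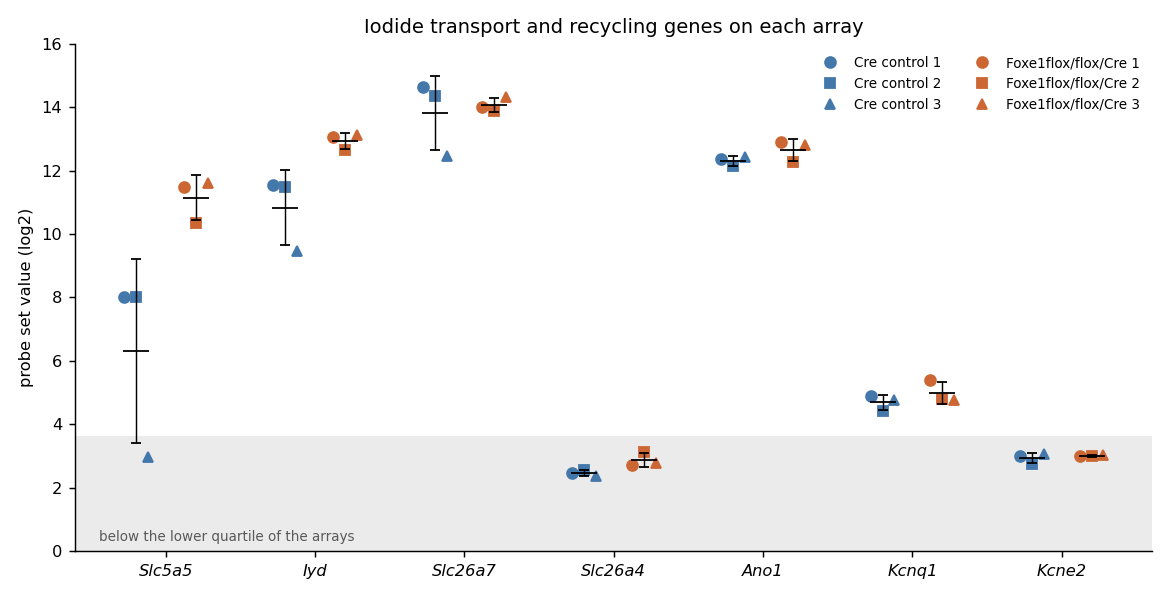
Log2 value of each of the 7 genes on each array, with blue symbols for the 3 Cre controls and orange symbols for the 3 knockouts. Horizontal bars are group means with SD, and the grey band lies below the highest of the arrays' lower quartiles, 3.60. Slc5a5 and Iyd separate the groups by a wide gap, and control 3 is the low control of Slc5a5, Iyd and Slc26a7.

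Uptake begins with Slc5a5, the sodium iodide symporter of the basolateral membrane. It read 8.00, 8.00 and 2.97 on the control arrays, against 11.50, 10.34 and 11.61 on the knockout arrays. The groups did not overlap: the lowest knockout stood 2.34 above the highest control. Control 3 was alone near the bottom of its array, at percentile 10.5, where controls 1 and 2 stood at percentiles 69.2 and 68.7 and the knockouts between 84.9 and 91.1.

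The control mean of Slc5a5 was 6.32 ± 2.90 and the knockout mean 11.15 ± 0.70 (SD, n = 3 each). The difference of 4.83 (SE 1.18, 95% interval 2.15 to 7.51, limma adjusted p = 0.14) corresponds to 28.4-fold, with an interval from 4.42-fold to 182-fold. It was the upward difference of rank 2 by size among all 22206 probe sets, yet held rank 458 by p, since the controls ranged over 5.03. Without control 3 the difference was 3.15 and the adjusted p 0.0523. The reading of control 3 is as low as those of dim probe sets, so the size of the difference depends on a value near background.

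Recycling rests on Iyd, the iodotyrosine deiodinase, which frees iodide from mono- and diiodotyrosine. It read 11.56, 11.49 and 9.46 on the control arrays, against 13.05, 12.65 and 13.12 on the knockout arrays. Here too control 3 was low and the groups were apart, by 1.09 between the lowest knockout and the highest control.

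Means of Iyd were 10.84 ± 1.19 and 12.94 ± 0.25 (SD, n = 3 each), a difference of 2.10 (SE 0.50, 95% interval 0.96 to 3.25, limma adjusted p = 0.136) or 4.30-fold. Iyd stood between percentiles 80.0 and 95.5 on all 6 arrays, well above the range of dim probe sets. Its difference was 1.42 without control 3 (adjusted p = 0.0975).

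The sequences before the starts of these genes are shown because they had the largest differences of the 7. The windows hold the 250 bases upstream of the RefSeq start on the gene's own strand, with GRCm38.p6 coordinates. Slc5a5 lies on the minus strand at chr8:70892758-70893007 and Iyd on the plus strand at chr10:3540024-3540273. Capitals mark a match to a searched motif.
Slc5a5: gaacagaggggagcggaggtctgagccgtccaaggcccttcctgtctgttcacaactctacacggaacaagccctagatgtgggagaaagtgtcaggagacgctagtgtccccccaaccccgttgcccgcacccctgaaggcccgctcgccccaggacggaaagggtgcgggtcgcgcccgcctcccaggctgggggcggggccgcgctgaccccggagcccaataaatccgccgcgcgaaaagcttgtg
Iyd: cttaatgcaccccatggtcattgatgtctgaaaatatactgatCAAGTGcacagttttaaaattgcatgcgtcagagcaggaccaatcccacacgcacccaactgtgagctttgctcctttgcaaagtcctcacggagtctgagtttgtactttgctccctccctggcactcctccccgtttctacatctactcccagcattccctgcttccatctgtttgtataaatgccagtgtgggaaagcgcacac

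The motifs were searched on both strands of the whole window of 300 bases, which runs 50 bases past the start. The forkhead motifs GTAAACA and ATAAACA, one or other of which 7.97% of 32851 promoter windows hold, occur in neither window. The Nkx2-1 core CAAGTG, held by 13.6% of windows, occurs at -207 to -202 of Iyd and not in that of Slc5a5. The cAMP element core TGACGT, held by 7.51%, occurs in neither, and among the 5 members with an entry it occurs once, on the opposite strand at -119 to -114 of the first of the 2 starts of Kcne2. Slc26a7 and Kcnq1 have no entry. A match of letters is a description of the sequence and no evidence of binding. An absence holds only for these 300 bases and says nothing of more distant sequence.

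Apical exit is served by Slc26a7, Slc26a4 and Ano1, and none of these 3 had a difference near the size of the symporter's. Slc26a7, an anion transporter whose loss causes hypothyroidism, read 14.64, 14.36 and 12.48 on the control arrays, against 14.01, 13.90 and 14.32 on the knockout arrays. The knockouts lay within the range of the controls, and control 3 was again the low array. The means were 13.83 ± 1.17 and 14.08 ± 0.22 (SD, n = 3 each), a difference of 0.25 (SE 0.50, 95% interval -0.88 to 1.38, limma adjusted p = 0.889). Without control 3 the sign turned, to -0.42 (adjusted p = 0.556).

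Slc26a4 encodes pendrin, the iodide and chloride exchanger of Pendred syndrome. It read 2.46, 2.54 and 2.37 on the control arrays, against 2.71, 3.12 and 2.77 on the knockout arrays. The groups did not overlap, but every reading was below the lower quartile of its array, between percentiles 0.5 and 15.8. The difference of 0.41 (SE 0.19, 95% interval -0.02 to 0.84, limma adjusted p = 0.414) therefore lies among values that cannot be told from background.

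Ano1, a calcium-activated chloride channel that also conducts iodide, read 12.36, 12.14 and 12.42 on the control arrays, against 12.90, 12.27 and 12.81 on the knockout arrays. Knockout 2 lay within the control range and the other knockouts above it. The difference was 0.35 (SE 0.22, 95% interval -0.15 to 0.85, limma adjusted p = 0.56). Ano1 stood between percentiles 93.0 and 94.9 throughout and ranged over 0.28 in the controls, less than Slc5a5, Iyd or Slc26a7, and over 0.63 in the knockouts.

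Kcnq1 and Kcne2 encode the pore and the accessory subunit of a constitutively open potassium channel of the follicular cell, whose loss impairs iodide accumulation. Kcnq1 read 4.89, 4.42 and 4.75 on the control arrays, against 5.40, 4.79 and 4.77 on the knockout arrays. Its groups overlapped, with knockout 1 the highest array. The difference was 0.30 (SE 0.24, 95% interval -0.24 to 0.84, limma adjusted p = 0.662), and 0.093 without knockout 1.

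Kcne2 read 2.98, 2.74 and 3.06 on the control arrays, against 2.98, 2.99 and 3.03 on the knockout arrays. The 3 knockouts fell within 0.05 of each other and inside the control range. The difference was 0.07 (SE 0.18, 95% interval -0.33 to 0.48, limma adjusted p = 0.913), with every array between percentiles 6.0 and 12.8. Like Slc26a4, Kcne2 lay below the lower quartile on all 6 arrays, so neither gene's transcript was detectable above the dim probe sets here, although both are known in thyroid.

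**Figure D2:**
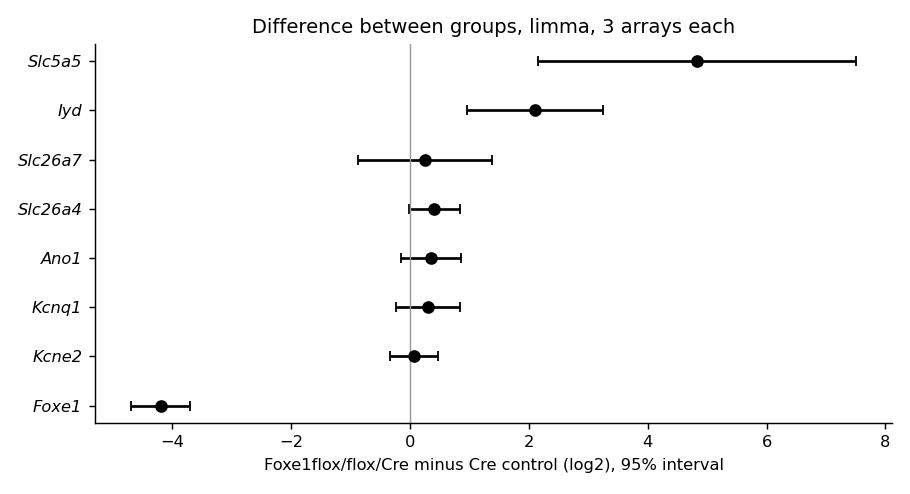
Difference between knockout and control means on the log2 scale for the 7 genes and for Foxe1, from limma with 3 arrays per group. Bars are 95% intervals, not adjusted for the number of probe sets. The intervals of Slc5a5 (2.15 to 7.51) and Iyd (0.96 to 3.25) lie above 0, those of the other 5 genes include it, and that of Foxe1 lies below it.

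Control 3 stood apart from the other controls for Slc5a5, Iyd and Slc26a7, while control 2 was the lowest control for Ano1, Kcnq1 and Kcne2. Relative to the mean of the other controls, control 3 stood at -5.03 for Slc5a5, -2.06 for Iyd and -2.02 for Slc26a7. There Slc26a4 differed by -0.13, and Ano1, Kcnq1 and Kcne2 by 0.17, 0.09 and 0.20. A value at least 1 below both other controls was met by 3 of the 7 genes on control 3. Over all probe sets it was met by 0.766% on control 3, 1.71% on control 1 and 0.315% on control 2, so control 3 was not the array most often low. Only Slc5a5 among all 22206 probe sets was 5 or more below both other controls on it. The same mark was met by 3 probe sets on control 1 and 0 on control 2. By control 3 minus the mean of the other controls, Slc5a5 held rank 3 from the lowest.

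Some other follicular transcripts were low on control 3 as well. Pax8, the paired-box factor of the follicular cell, read 12.12 and 12.10 in controls 1 and 2 and 10.42 in control 3. The deiodinase gene Dio1, named here for this pattern, read 8.57 and 8.05 against 6.06. Nkx2-1 read 7.41 and 6.56 against 5.59 in control 3, and Glis3 7.54 and 8.15 against 6.46. Within the organification list Tshr and Gnas were low there by less. Tshr read 7.72 and 7.76 against 7.02, and Gnas 15.47 and 15.67 against 14.86. Duox1, Duoxa2 and Dio2 did not share the pattern, or barely. Duox1 read 6.74, 6.81 and 6.79 on the control arrays. Duoxa2 read 8.05, 8.04 and 7.88 there, and Dio2 5.86, 5.62 and 5.81. Thyroglobulin, Tg, read 19.26, 18.93 and 18.67 on the control arrays, against 19.27, 18.94 and 18.78 on the knockout arrays, close to the highest value of the table, 19.93. The mean of the 5 measured follicular markers (Tg, Tshr, Pax8, Nkx2-1 and Glis3) was 10.81, 10.70 and 9.63 on the control arrays, against 11.44, 11.00 and 11.17 on the knockout arrays. The part of this in the members' differences was not tested beyond the ratios that follow.

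Ratios between members on the same array remove whatever both share on that array. Each is a difference of log2 values, centred on the mean of the controls, since the levels of different probe sets cannot be compared. Of 21 pairs, 11 had groups that did not overlap, namely the 6 with Slc5a5 and the 6 with Iyd, which share 1 pair. The other 10 pairs overlapped. Without control 3 the count was 15, because the ratios of Slc26a7 to Slc26a4, Ano1, Kcnq1 and Kcne2 then had all knockouts below both controls. Groups come apart more easily with 1 array fewer, and the share over all probe sets was not computed for that set. The rise is therefore no result about Slc26a7. With 3 arrays against 3 the exact two-sided permutation test cannot give a p under 0.10. All 11 reached that value, which is 0.191 after adjustment over the 21 pairs. Both genes are already separated on their own, so these counts stand near their background: 99.4% of all other probe sets gave a separated ratio to Slc5a5 and 94.5% to Iyd. The same share was 38.3% for ratios to Slc26a4, 20.7% to Ano1, 18.1% to Kcnq1 and 16.9% to Kcne2, and for each of these 4 genes 2 of the other 6 members gave one.

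The ratio of Iyd to Slc26a7 was the tightest of the separated ratios within the controls. It read -0.09, 0.12 and -0.03 on the control arrays, against 2.03, 1.74 and 1.79 on the knockout arrays. Control 3 no longer stood apart, for both genes were lower there by like amounts. The difference was 1.85, or 3.61-fold, with SDs of 0.11 and 0.16 (n = 3 each), against a control SD of 1.19 for Iyd alone. It stayed between 1.77 and 1.91 when any 1 array was left out. The exact permutation p was 0.1, the smallest this design can give. Of all other probe sets 1.83% gave a separated ratio to Slc26a7, and among the other 6 members Slc5a5 and Iyd did so. That share is low since the controls of Slc26a7 ranged over 2.16, around its knockouts. Against Iyd, already separated on its own, 94.5% of all other probe sets gave a separated ratio. The pair was picked as the tightest, so its small spread is no measure of how firm the difference is.

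Slc5a5 over Slc26a7 read 0.86, 1.14 and -2.01 on the control arrays, against 4.99, 3.94 and 4.79 on the knockout arrays. The difference was 4.58 and control 3 remained low. Slc5a5 over Iyd read 0.95, 1.02 and -1.98 on the control arrays, against 2.96, 2.20 and 3.00 on the knockout arrays, a difference of 2.72 or 6.60-fold. The ratio was higher on every knockout array than on every control array, at an exact permutation p of 0.1 again, and its difference was 1.74 without control 3.

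Against the potassium channel subunits and Ano1 the ratios of Iyd differed by 1.75 (Ano1), 1.80 (Kcnq1) and 2.03 (Kcne2). In each the control SD was between 1.26 and 1.31, and without control 3 the differences were smaller, 1.01 (Ano1), 1.08 (Kcnq1) and 1.28 (Kcne2). Among the apical and potassium genes themselves the groups overlapped on the 6 arrays. Slc26a7 over Ano1 differed by -0.10, Slc26a7 over Slc26a4 by -0.16, Ano1 over Kcnq1 by 0.05 and Kcnq1 over its subunit Kcne2 by 0.23, with exact permutation p between 0.5 and 1 for these 4. The ratios of Slc26a7 rested on control 3: without it they differed by -0.79 over Slc26a4, -0.83 over Ano1, -0.76 over Kcnq1 and -0.56 over Kcne2. Slc26a4 over Kcne2, both dim, gave the largest difference of the 10 overlapping pairs, 0.34 (exact permutation p = 0.3). For the pairs with Slc26a4 or Kcne2 a ratio can only show what the dim member allows. Kcnq1 was above the lower quartile but still low, between percentiles 38.2 and 47.8.

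**Figure D3:**
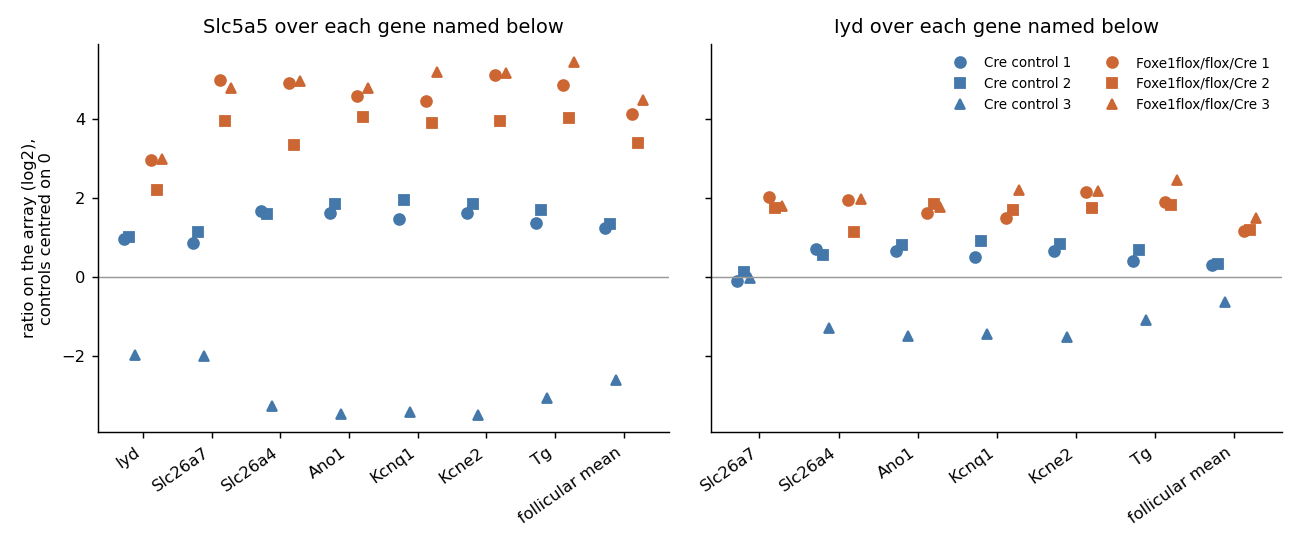
Same-array ratios of Slc5a5 (left) and Iyd (right) to each gene named on the horizontal axis, to Tg and to the mean of 5 follicular markers, on the log2 scale and centred on the controls. Blue symbols are the 3 Cre controls and orange symbols the 3 knockouts. In every column the knockouts lie above the controls, and only for Iyd over Slc26a7 do the 3 controls come within 0.21 of each other.

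Ratios to follicular transcripts were computed in the same way. Tg read close to the top of the scale on every array. Its group means differed by only 0.04, so the difference of a ratio to it nearly repeats each gene's own. Its variation between arrays still enters, and Slc26a4, apart on its own, overlapped over Tg. Over Tg, Slc5a5 differed by 4.78 and Iyd by 2.06 with groups apart, and the other 5 by 0.03 to 0.37 with groups overlapping. A separated ratio to Tg was found for 2 of the 7 and for 9.76% of all other probe sets. Over the mean of the 5 follicular markers, which itself was 0.82 higher in the knockouts, Slc5a5 differed by 4.00 and Iyd by 1.28. The other 5 had negative differences there, from -0.41 for Slc26a4 to -0.75 for Kcne2, and Kcne2, itself near background, had all knockouts below all controls. These signs depended on the reference: with Tshr and Pax8 left out of it, Slc26a4, Ano1 and Kcnq1 turned to 0.13, 0.07 and 0.017, and Slc26a7 and Kcne2 differed by -0.03 and -0.21. With all 5 markers, the count was 3 of 7 separated, where 50.7% of all probe sets outside the reference were, so the count says nothing particular about the 7. Of these 14 ratios 5 were separated, each with an exact permutation p of 0.1 (adjusted p = 0.28 over the 14).

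Leaving out 1 array at a time moved the members unequally. The difference of Slc5a5 ran from 3.15 to 5.67, that of Iyd from 1.42 to 2.46, that of Slc26a4 from 0.28 to 0.49, and that of Ano1 from 0.23 to 0.55. No member passed the threshold in any of these 6 fits. The lowest adjusted p was that of Slc5a5 without control 3, 0.0523.

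**Figure D4:**
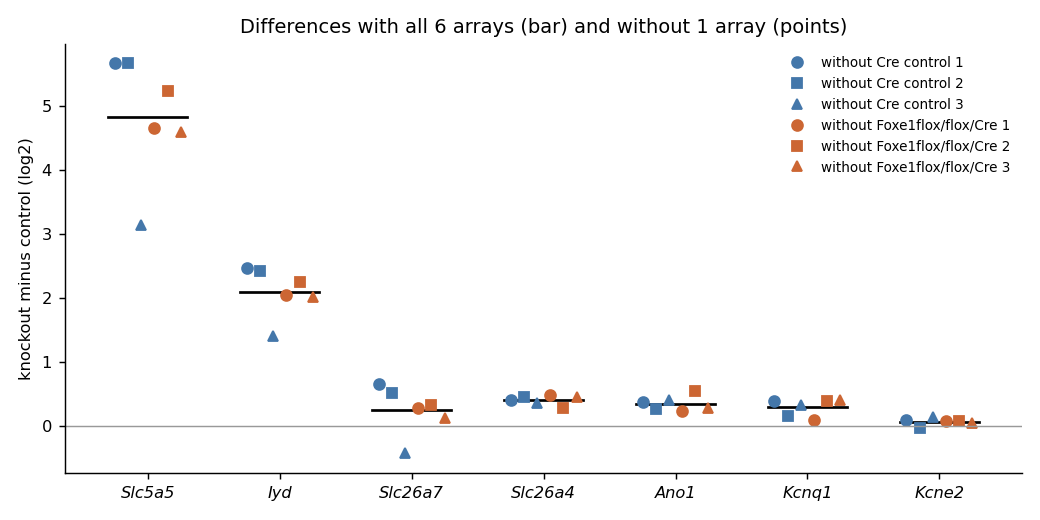
Knockout minus control difference of each gene on the log2 scale, with all 6 arrays as a bar and without 1 array as a point, whose symbol gives the array left out. Without control 3 the difference of Slc5a5 drops to 3.15 and that of Iyd to 1.42, and that of Slc26a7 turns to -0.42. Slc26a4, Ano1 and Kcnq1 keep positive differences in all 6 fits, and Kcne2 turns to -0.020 without control 2.

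Among other genes of the pathway, 48 in 6 lists were measured and 2 passed the threshold, which 0.338% of all probe sets passed. These were the deleted gene Foxe1 itself and Hhex. The counts at an unadjusted p under 0.05 that follow stand beside 12.7% of all probe sets. Of the sodium pump and symporter partners 8 were measured and 0 passed in limma (2 at an unadjusted p under 0.05; median difference 0.28, against -0.02 over all probe sets). Atp1b3, a sodium pump subunit, read 13.99, 14.65 and 14.58 on the control arrays, against 15.30, 15.03 and 15.16 on the knockout arrays, a difference of 0.76 (SE 0.22, limma adjusted p = 0.197). Slc5a8, a monocarboxylate transporter of the apical membrane once proposed to carry iodide, read 12.18, 11.96 and 11.46 on the control arrays, against 12.75, 12.21 and 13.00 on the knockout arrays, a difference of 0.79 (SE 0.27, limma adjusted p = 0.264). Both had knockouts above all controls, at sizes below those of Slc5a5 and Iyd. Atp1b1, another pump subunit, differed by 0.32 (adjusted p = 0.644).

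Of the other SLC26 anion transporters 8 were measured and 0 passed in limma (2 at an unadjusted p under 0.05; median difference 0.00). Slc26a9, a chloride channel of airway and stomach, read 9.37, 12.20 and 11.62 on the control arrays, against 12.08, 13.01 and 13.03 on the knockout arrays, a difference of 1.64 (limma adjusted p = 0.328). Its groups overlapped, and the difference was 0.80 without control 1. Slc26a10 read 9.39, 8.98 and 6.28 on the control arrays, against 9.34, 9.08 and 10.09 on the knockout arrays, so that control 3 was low as it was for Slc26a7. The difference was 1.29 (limma adjusted p = 0.5), and 0.32 without control 3. Slc26a5, the motor protein prestin of outer hair cells, differed by 0.65 (adjusted p = 0.317), among low readings between percentiles 19.1 and 40.5.

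The other anion channels, 15 in number and all measured, held 0 calls in limma (2 at an unadjusted p under 0.05; median difference 0.08). The anoctamin Ano9 read 6.82, 7.53 and 8.06 on the control arrays, against 8.20, 8.45 and 8.98 on the knockout arrays, a difference of 1.07 (adjusted p = 0.218). Its relatives Ano4 and Ano3 differed by -0.55 and -0.41 (adjusted p of 0.351 and 0.526). Ano3 was dim, between percentiles 9.0 and 32.6, and its groups overlapped. As none of these differences passed the threshold, their signs say little about the family.

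Of the other subunits of the KCNE and KCNQ families 5 were measured and 0 passed in limma (3 at an unadjusted p under 0.05; median difference 0.34). Kcne1, which slows Kcnq1 channels in heart and inner ear, read 2.91, 2.71 and 2.61 on the control arrays, against 3.66, 3.62 and 3.43 on the knockout arrays. The difference of 0.83 (SE 0.18, limma adjusted p = 0.109) is one of dim signals, from percentile 2.9 to percentile 28.2 within the arrays. Kcne3, which like Kcne2 holds Kcnq1 channels open, read 9.39, 9.26 and 8.71 on the control arrays, against 8.65, 8.31 and 8.32 on the knockout arrays, a difference of -0.69 (SE 0.23, limma adjusted p = 0.249). Kcne1 had all knockouts above and Kcne3 all knockouts below the controls. Kcnq5 differed by 0.47 (adjusted p = 0.349).

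In the list of organification and thyrotropin signalling 7 genes were measured and 0 passed in limma (3 at an unadjusted p under 0.05; median difference 0.04). Tshr, the thyrotropin receptor that drives expression of the symporter, read 7.72, 7.76 and 7.02 on the control arrays, against 9.53, 8.08 and 10.13 on the knockout arrays, a difference of 1.75 (adjusted p = 0.167). All its knockouts lay above its controls, knockout 2 by the least. Duox1, a dual oxidase, differed by 1.11 (adjusted p = 0.216), and Gnas, the stimulatory G protein subunit that couples the receptor to cAMP, by -0.80 (adjusted p = 0.261).

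Of 5 thyroid transcription factors, which include regulators of the symporter gene, Foxe1 fell and 1, Hhex, rose, by 2.46 (SE 0.32, limma adjusted p = 0.0273), a call lost in all 6 fits without 1 array (adjusted p from 0.0591 to 0.107). Pax8, which acts on the upstream enhancer of Slc5a5, read 13.37, 13.08 and 12.75 in the knockouts and differed by 1.52 (adjusted p = 0.183). Without control 3 its difference was 0.96.

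Genes whose 6 values ran most like a member's were sought among 10087 brighter named probe sets, by the root mean square difference of profiles after each gene's own mean was removed. Nearest to Slc5a5 were Scg5, a granule protein of neuroendocrine cells, the urea transporter Slc14a2 and the protease Napsa, at 1.03, 1.06 and 1.21 log2 units, where the median gene was at 2.97. Nearest to Iyd were Folr1, a folate receptor, Galns, a lysosomal sulfatase, and Fxyd4, a regulator of the sodium pump, at 0.25, 0.26 and 0.28 (median gene 1.28). Folr1 read 8.53, 8.19 and 7.00 on the control arrays, against 10.18, 9.67 and 10.07 on the knockout arrays, repeating both the low control 3 and the higher knockouts of Iyd. Nearest to Slc26a7 were Klhl14, Pdia6, an endoplasmic reticulum disulfide isomerase, and Fam13a, at 0.26, 0.26 and 0.29 (median gene 0.76). Klhl14 read 6.91, 6.66 and 5.49 on the control arrays, against 6.48, 6.41 and 6.56 on the knockout arrays. The other 4 members varied by under 2 log2 units and were not compared in this way.

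Marker lists of other tissue also had unequal means in the groups, and several of the 7 genes are expressed outside the thyroid. Parathyroid markers (3 of 4 measured) averaged 15.00, 16.93 and 13.24 on the control arrays, against 5.95, 14.77 and 8.69 on the knockout arrays, so that knockouts 1 and 3 held far less of them. Airway and ciliated markers (5 of 6 measured) averaged 15.96 to 16.88 in the controls and 15.06 to 15.25 in the knockouts. Skeletal muscle markers (6 of 6) averaged 17.15 to 17.37 and 16.33 to 16.98, and squamous markers (6 of 6) 16.52 to 16.74 and 16.96 to 17.57. The groups overlapped in the parathyroid list, where knockout 2 lay within the control range. They also overlapped in the smooth muscle, fibroblast, endothelial, adipocyte, macrophage, lymphocyte, mast cell and C cell lists. Of the 13 lists 0 markers passed the limma threshold on their own. Ano1 and Kcnq1, which were higher in knockouts 1 and 3 or 1 alone, differed by -0.017 and -0.045 once the mean of Pth and Casr was a covariate, a fit chosen after the values were seen. The covariate was itself low in knockouts 1 and 3 (6.00 and 9.56, against 13.3 to 16.6 on the other arrays), so it takes up part of the group difference. In that fit Slc26a7 differed by 0.50 and Slc26a4 by 0.65. Slc5a5 differed by 5.11 and Iyd by 2.25 (limma adjusted p = 0.546 for each of these 2). The part of muscle, airway and squamous tissue in the members' values was not tested.

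**Figure D5:**
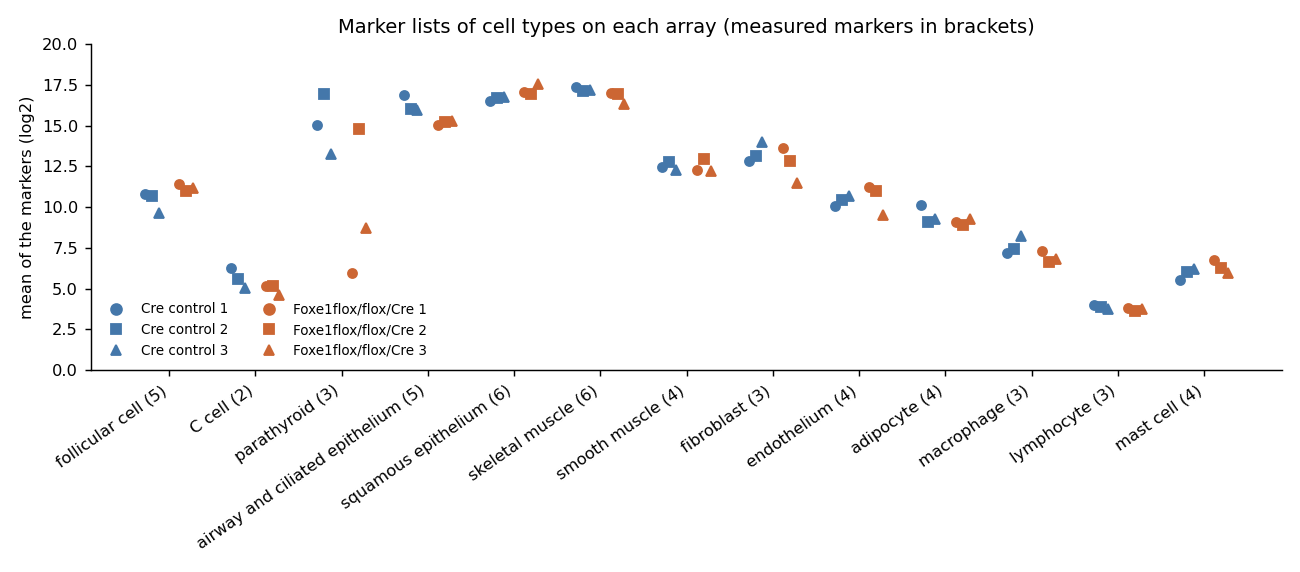
Mean log2 value of each cell type's measured markers on each array, with blue symbols for Cre controls and orange symbols for knockouts. The follicular mean is lowest in control 3 (9.63), and the parathyroid mean runs from 5.95 in knockout 1 to 16.93 in control 2.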

How the data were processed

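RNA of 6 thyroid lobes was measured, 1 array per animal. The values deposited by the authors are on the log2 scale. RMA and Affymetrix Expression Console are named in the submitters' processing notes, while their settings and the genome build were not given in the sources used here. RMA equalises the arrays, which hides any shift common to most transcripts, and low readings come without detection calls. Probe sets were named through the platform table of 2019 and gene IDs (19572 of 22206 named, 2634 unnamed). Some genes of the pathway lists were not analysed here.

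All probe sets were fitted with limma 3.58.1 in R 4.3.3 (lmFit, eBayes, no trend, Benjamini-Hochberg over all, threshold 0.05, two-sided). Replicates are separate animals. Same-array ratios were tested with exact permutation of the arrays in scipy 1.17.1. In simulated data for knockout against control, with 50 of 22206 probe sets changed at each size, the fit recovered 28% of changes of 1 log2 unit, 82% of 2, 100% of 3 and 100% of 4, with 8 false calls among 163. The simulated noise was independent and normal, without outlying arrays or differences in sex and tissue content. These shares therefore do not carry over to the measured arrays, where Slc5a5 differed by 4.83 and was not called.

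Members, lists and tests were chosen with earlier results of these data known. Named are the members, Foxe1, pathway genes past the threshold or, where fewer than 3 passed, the 3 of smallest p, and the 3 nearest genes by profile. Dio1, Dio2, Duoxa2, Tg, Nkx2-1, Glis3, Pth and Casr fall outside that rule. Promoters are from RefSeq GRCm38.p6.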

Additional observations from a re-analysis of the deposited data

How the results depend on the processing

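The members' differences were recomputed under up to 13 other settings, and without each array. Slc26a4 and Kcne2 had 11 such settings and Kcnq1 12, since filters on signal level removed them from the rest. Of the settings 2 were added after seeing the data, with sex read from Y-linked genes, and Pth with Casr, as covariates. No member passed the threshold in a setting that tested it. Slc5a5 kept a difference of 4.81 to 5.11 and Iyd of 2.03 to 2.25 over the 13 (adjusted p from 0.107 to 0.546 and from 0.1 to 0.546). With Pth and Casr as a covariate Ano1 turned to -0.017 and Kcnq1 to -0.045, and the probe sets called fell from 75 to 2. The count was 118 with a robust variance trend, and 0 with an ordinary t statistic (limma without shared variance, 2208 at an unadjusted p under 0.05). Without 1 array it ran from 2 to 43 (43, 9 and 16 without controls 1, 2 and 3, and 2, 15 and 4 without knockouts 1, 2 and 3). Leaving out 1 array gave -0.42 to 0.66 for Slc26a7 and -0.020 to 0.14 for Kcne2. The causes were not tested.

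With the replicate number as a block the differences are the same by construction, 63 probe sets were called, and the adjusted p was 0.129 for Slc5a5 and 0.129 for Iyd. Deviations of same-numbered arrays correlated at -0.0090, 0.076 and 0.017, so no effect shared by same-numbered arrays was seen. These values cannot tell whether same-numbered animals were littermates or were handled together. Paired by number, 13 of the 21 member ratios and 8 of the 14 follicular ratios differed one way in all 3 pairs, for which the smallest exact sign-flip p is 0.25. Of the 13, 11 hold Slc5a5 or Iyd, which are already separated on their own. The share of all probe sets whose ratios differ one way in all 3 pairs was not computed. Neither count can therefore be read as particular to the members.

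Separated member ratios ran from 11 to 15 without 1 array, 15 being without control 3. Separated follicular ratios ran from 5 to 8 without 1 array, 8 being without control 3. Groups come apart more easily with 1 array fewer, and the shares over all probe sets were not computed for these sets. The higher counts are therefore no result about the members. With quantile normalization Ano1 over Kcnq1 turned to -0.087, Slc26a7 over Tg to -0.0625 and Kcne2 over Tg to -0.15. With Tshr and Pax8 left out of the reference, Slc26a4, Ano1 and Kcnq1 over the follicular mean turned to 0.13, 0.07 and 0.017. Without 1 array the ratio of Slc26a7 ran from -0.79 to 0.24 over Slc26a4, from -0.83 to 0.28 over Ano1, from -0.76 to 0.35 over Kcnq1, from -0.56 to 0.56 over Kcne2 and from -0.33 to 0.48 over Tg. That of Slc26a4 ran from -0.27 to 0.26 over Ano1 and from -0.12 to 0.40 over Kcnq1, that of Ano1 over Kcnq1 from -0.13 to 0.15, and that of Kcne2 over Tg from -0.097 to 0.24. Signal near background limits Slc26a4, Kcne2 and Slc5a5 in control 3.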
